A study of Mus musculus with 30 samples.

Results

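The nuclear genes for respiratory complexes III and IV, cytochrome c and the ATP synthase were followed after exposure of 3T3-L1 cells to 9 agents. These mouse fibroblast-like cells are committed to the fat lineage and can turn into fat cells in culture. Members were chosen by symbol: genes whose symbol starts with Uqcr, with Cox4 to Cox8, with Cox10 to Cox19 or with Atp5, together with Cycs and Cyc1, and without the tissue isoforms Cox7a1 and Cox8b. The rule found 50 genes of 14763 named genes on the array, measured with 79 probes. They comprised 9 genes of complex III, cytochrome c, 9 common subunits of complex IV, 5 isoforms or relatives of complex IV subunits, 8 genes of complex IV assembly, and 18 ATP synthase entries. The ATP synthase entries were 5 subunits of the F1 head, 4 of the stalk, 8 of the membrane part and the pseudogene Atp5c1-ps. Subunits encoded by the mitochondrial genome lie outside the rule.

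Complex III takes electrons from ubiquinol and passes them to cytochrome c, a small soluble carrier in the space between the mitochondrial membranes. Complex IV hands the electrons from cytochrome c to oxygen. Both pump protons, and the ATP synthase lets the protons flow back through its membrane ring and makes ATP in its F1 head. Fat cells gain mitochondria as they form, and many of these genes are known to be controlled through NRF1, ETS factors such as GABPA, estrogen-related receptors and the coactivators of the PGC-1 family.

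There were 30 two-colour arrays in 10 groups of 3. Cells 2 days past confluence were moved to medium with 10% foetal bovine serum, exposed for 10 days and harvested at day 10. The solvent group received 0.1% DMSO. The MDI group, the positive control, received for 48 h insulin at 10 µg/mL with dexamethasone at 0.25 µM and isobutylmethylxanthine at 0.5 mM, and insulin alone for the other 8 days. The other 8 groups received ROSI, TBT, BPA, BBP, DEHP, BP, EB or PP, at doses not given in the sources used here. ROSI, TBT, BPA, BBP and DEHP are taken in their usual sense. ROSI then stands for rosiglitazone, an agonist of the fat cell receptor PPAR gamma, TBT for tributyltin and BPA for bisphenol A. BBP and DEHP are phthalates, the first with a benzyl and a butyl group and the second with a pair of ethylhexyl groups. BP, EB and PP are kept as the labels give them. The design text speaks of biological replicates but not of separate cultures, so p-values measure the spread between these samples.

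Each sample, labelled with Cy3, was hybridised against 1 common reference labelled with Cy5, mixed from equal parts of control and exposed samples. A level is the log2 ratio of sample over reference, and a difference is the level of 1 group minus that of another. The DMSO and MDI group means correlated at -0.51 across the 19231 entries (named genes and unnamed probes). That does not turn the sign here: the dyes of sample and reference are stated, and a reference that contains both groups can set them on opposite sides. Differences were tested with limma across all entries, and a gene was called at a Benjamini-Hochberg adjusted p under 0.05. Median levels over all entries lay between -0.00 and 0.01 on every array. The number of arrays limits the precision, and the standard error of a member's difference was 0.06 in the median (0.04 to 0.13).

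Of the 50 genes, 37 had a promoter in the RefSeq promoter table (GRCm38.p6, 250 bases before to 50 after the start site). The 9-letter NRF1 core GCGCANGCG, searched on both strands, was found in 10 of the 37 (27.0%) and in 7.03% of all 27025 genes in the table. The ETS core CCGGAAGT was found in 8 (21.6%) against 4.31%, the YY1 core AAGATGGCG in 3 (8.11%) against 1.64%, and the estrogen-related receptor element TCAAGGTCA in 1 (2.70%) against 0.466%. The 150 bases before the start site are shown for Cycs, the member with the largest difference, and for 4 of the members whose promoters carry more than 1 match. They are given 5′ to 3′ on the gene's strand, with motif letters in capitals.
Cycs: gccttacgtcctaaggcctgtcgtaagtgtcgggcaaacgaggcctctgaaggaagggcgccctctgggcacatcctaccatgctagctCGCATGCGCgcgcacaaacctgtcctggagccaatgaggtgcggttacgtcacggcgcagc
Uqcr11: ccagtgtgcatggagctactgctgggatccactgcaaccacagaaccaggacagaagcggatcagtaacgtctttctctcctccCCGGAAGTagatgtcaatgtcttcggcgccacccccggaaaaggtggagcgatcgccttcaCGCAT
Atp5g3: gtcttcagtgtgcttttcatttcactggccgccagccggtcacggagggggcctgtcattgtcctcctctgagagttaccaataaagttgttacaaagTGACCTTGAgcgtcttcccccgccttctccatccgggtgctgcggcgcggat
Atp5h: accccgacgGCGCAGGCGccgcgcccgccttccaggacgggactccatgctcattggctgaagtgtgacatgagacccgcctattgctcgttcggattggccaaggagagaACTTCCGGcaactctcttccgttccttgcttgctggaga
Atp5k: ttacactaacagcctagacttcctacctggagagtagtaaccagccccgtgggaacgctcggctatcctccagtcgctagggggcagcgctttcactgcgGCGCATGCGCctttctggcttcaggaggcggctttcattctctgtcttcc

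The Cycs window is chr6:50566570-50566719, and its NRF1 core begins 61 bases before the start site on the opposite strand. The Uqcr11 window is chr10:80406822-80406971, with an ETS core 66 bases before the start site and an NRF1 core that begins 5 bases before it and runs past the window. The Atp5g3 window is chr2:73911327-73911476, with the estrogen-related receptor element 52 bases before the start site and an NRF1 core that lies after it. The Atp5h window is chr11:115419920-115420069, with an NRF1 core 141 bases and an ETS core 39 bases before the start site. The Atp5k window is chr5:108434400-108434549, where a palindromic stretch holds NRF1 cores on both strands, 50 and 49 bases before the start site. All 5 genes lie on the minus strand. The NRF1 core was found in Cycs, in 2 of 5 complex III genes (Uqcr11 and Uqcrc1) and in 7 ATP synthase genes, and in none of the 7 common complex IV subunits in the table. The ETS core was found in 4 of 6 complex IV assembly genes (Cox10, Cox14, Cox15 and Cox16), in 2 of 5 complex III genes, in 1 of 7 common complex IV subunits and in 1 of 4 stalk genes. Differences between roles were not tested. A match describes these letters only.

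Against DMSO, most members rose with 7 of the 9 agents, by amounts that differed between agents. In MDI, 46 of the 50 members were called higher and 1 lower, with a median difference of 1.05 on the log2 scale, while 20.1% of all entries were called higher and 18.3% lower. In ROSI, 45 were higher and none lower, also at an unadjusted p under 0.05, with a median of 0.91 against a background of 16.5% higher and 14.3% lower. The median over all entries was near 0 in every comparison. The pattern of calls over all members and agents is plotted gene by gene.

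**Figure D1:**
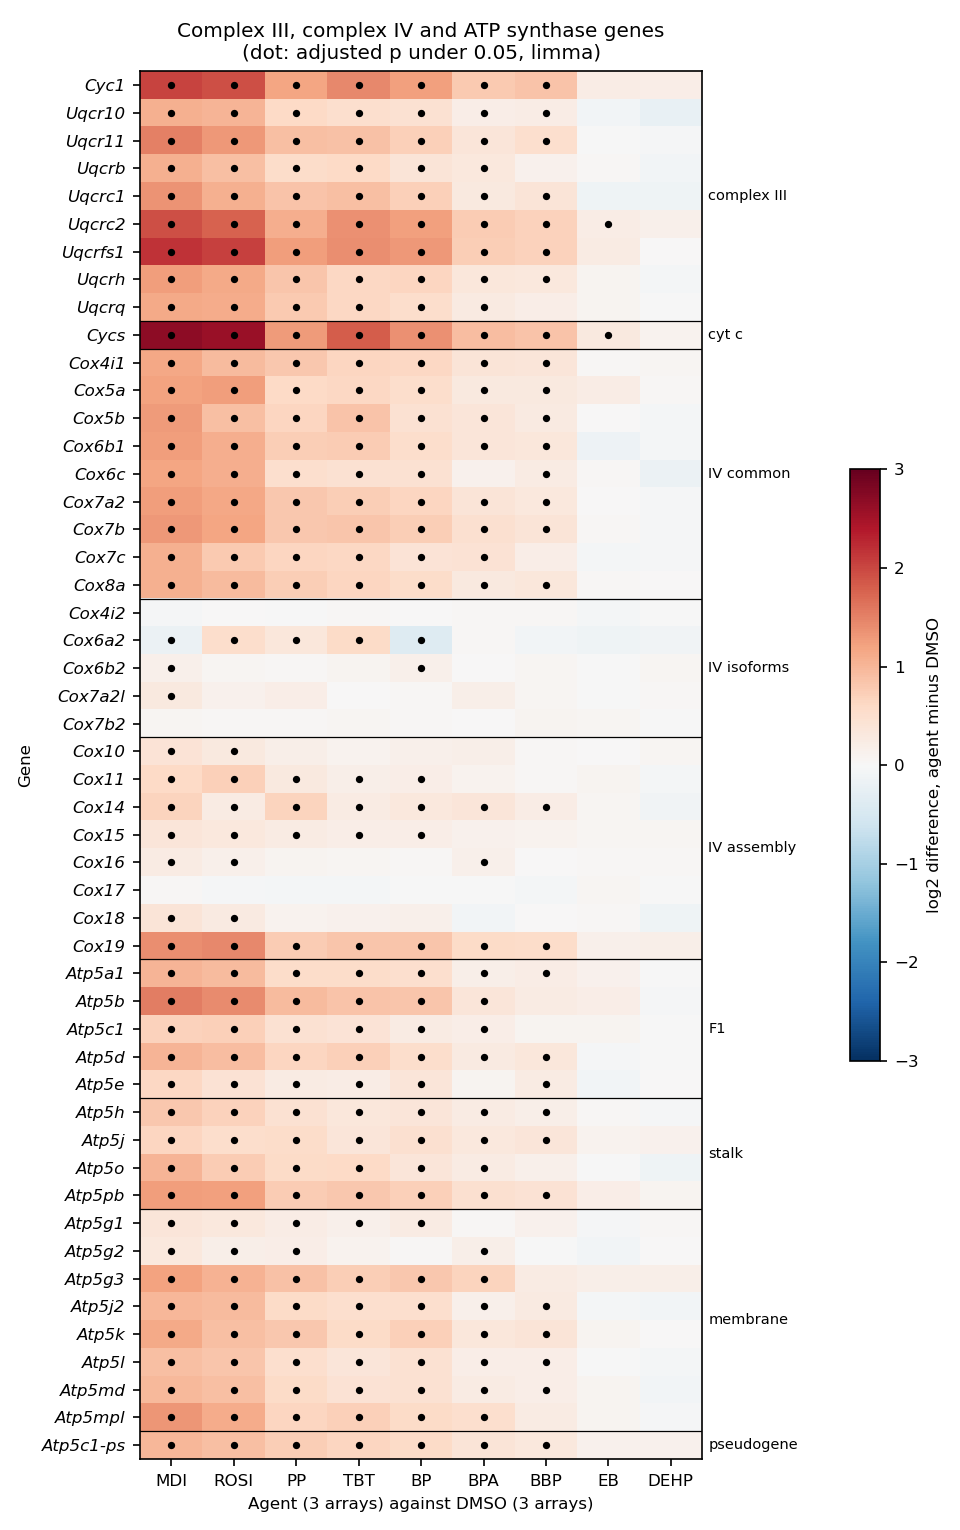
Log2 difference of each agent minus DMSO (colour) for the 50 genes (rows, grouped by role) and the 9 agents (columns), with a dot where limma called the gene at an adjusted p under 0.05. Cycs and the complex III genes Uqcrfs1, Cyc1 and Uqcrc2 carry the deepest colour. Complex IV isoforms and several assembly genes stay pale, and the DEHP column holds no dot.

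In TBT, 41 members were called higher and none lower, with a median difference of 0.58 (14.1% of all entries higher, 10.6% lower). In PP, 42 were higher and none lower, with a median of 0.60 (12% higher, 8.24% lower). In BP, 41 were higher and 1 lower, with a median of 0.48 (12.9% higher, 8.73% lower). BPA and BBP gave smaller differences. In BPA, 37 were higher and none lower, with a median of 0.28 (12.3% higher, 6.97% lower). In BBP, 29 were higher and none lower, with a median of 0.24 (6.9% higher, 2.35% lower). At an unadjusted p under 0.05, the count of members lower was 0 in TBT, PP, BPA and BBP too. The count with quantile normalization between arrays was 20 higher in BPA, and 12 higher and 1 lower in BBP, and the medians fell to 0.65 in MDI, 0.16 in BPA and 0.072 in BBP.

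EB and DEHP left the members close to the solvent control. In EB, limma called 2 members higher (Cycs and Uqcrc2) and none lower, with a median difference of 0.05 and a background of 0.432% higher and 0.25% lower. At an unadjusted p under 0.05, 9 members were higher and 1 lower in EB. The count in EB was between 0 and 5 when 1 array was left out: 0 without DMSO replicate 2, 1 without EB replicate 1, EB replicate 3 or DMSO replicate 1, and 5 without EB replicate 2. In DEHP, limma called none of the 50, with a median of -0.01 and a background of 0.0104% higher and 0.0052% lower. At an unadjusted p under 0.05, 6 members were higher and 2 lower in DEHP. The share of all entries at that unadjusted threshold was not determined, so the counts in EB and DEHP describe the members only. The differences in DEHP ran from -0.21 (Uqcr10) to 0.21 (Cyc1), and no member's 95% interval reached below -0.34 or above 0.35. All 9 comparisons share the DMSO arrays, so their agreement is not independent.

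The median level of the 50 members on each array set the groups in order. It was -0.41, -0.41 and -0.36 on the DMSO arrays, and lay between -0.45 and -0.39 in DEHP and between -0.37 and -0.31 in EB, so that both overlapped DMSO. It lay between -0.19 and -0.11 in BBP and between -0.14 and -0.11 in BPA, which overlapped each other and lay above all DMSO arrays. It reached 0.01 to 0.06 in BP, 0.02 to 0.15 in TBT and 0.12 in all 3 PP arrays, and TBT overlapped both BP and PP. The highest medians were 0.42 to 0.52 in ROSI and 0.51 to 0.55 in MDI, where the highest ROSI array lay just above the lowest MDI array.

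**Figure D2:**
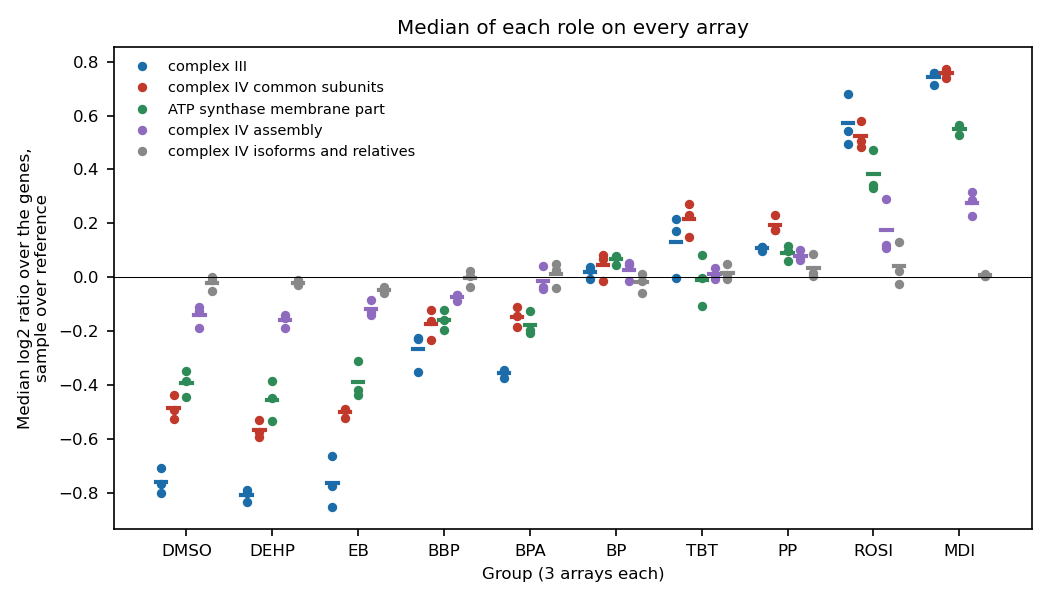
Median level (log2 ratio of sample over reference) of the members of 5 roles on each of the 30 arrays, with the groups along the horizontal axis; each point is 1 array and each short line the mean of 3. Levels climb from DMSO, DEHP and EB to ROSI and MDI for complex III, the common complex IV subunits and the membrane part of the ATP synthase, less for complex IV assembly, and stay near the reference for complex IV isoforms.

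Markers of fat cells moved with the members. All 8 adipocyte markers (Adipoq, Plin1, Cidec, Fabp4, Lpl, Slc2a4, Pparg and Cebpa) were called higher in each of the 7 agents in which most members rose, and 2 of 8 in EB. Their mean level per array was -2.42 to -2.06 in DMSO, -2.14 to -2.05 in DEHP and -1.96 to -1.72 in EB. It was -0.70 to -0.60 in BPA, -0.67 to -0.51 in BBP, -0.17 to -0.10 in TBT, 0.02 to 0.06 in PP, 0.18 to 0.26 in BP, 0.47 to 0.61 in ROSI and 1.25 to 1.35 in MDI. Of 5 measured preadipocyte or fibroblast markers, 4 fell in MDI and BPA, all 5 in ROSI and TBT, 3 in BP and PP and 1 in BBP. The part of these changes in the members' differences was not tested. In a whole culture, a larger share of converted cells and more RNA per converted cell cannot be told apart. Of 6 macrophage markers, Lyz2 alone was called in MDI, at -0.69. Of 5 skeletal muscle markers measured of 6, Acta1 (-1.04) and Mylpf (-0.11) were called lower and Tnnt3 (0.12) higher. The measured markers of endothelium (1 of 4) and epithelium (2 of 4) were not called, with differences between -0.04 and 0.01.

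Cytochrome c, encoded by Cycs, showed the largest difference of all members in MDI. Its level was -1.37, -1.55 and -1.46 on the DMSO arrays and 1.13, 1.20 and 1.31 on the MDI arrays, a difference of 2.68 ± 0.05 (SE, adjusted p = 9.2e-22) or 6.39-fold. It ranked 81 of the 19231 entries by difference in MDI. On the ROSI arrays it was 1.09, 1.14 and 1.12, a difference of 2.58 and rank 54. The ROSI and MDI arrays overlapped, and all lay far above DMSO.

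The other agents placed Cycs between these ends without overlap with DMSO, except DEHP. The level was 0.45, 0.34 and 0.30 in TBT (difference 1.82), -0.15, -0.01 and -0.12 in BP (1.37), and -0.18, -0.20 and -0.21 in PP (1.27). It was -0.57, -0.56 and -0.49 in BPA (0.92) and -0.64, -0.61 and -0.58 in BBP (0.85). The TBT arrays were above those of BP and PP, and BPA and BBP were lower again. In EB it was -1.20, -1.21 and -1.11, a difference of 0.29 ± 0.05 (SE, limma adjusted p = 0.0166), and in DEHP it was -1.31, -1.46 and -1.30, a difference of 0.10 that was not called. With quantile normalization the Cycs difference was 1.52 in MDI and 1.78 in ROSI, and the calls in BBP (0.12) and EB (0.080) were lost. The EB call was also lost in the fit on only the groups compared, and without EB replicate 3 or DMSO replicate 2.

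In complex III, all 9 members were called higher in MDI, ROSI, TBT, BPA, BP and PP, and 7 of 9 in BBP. The median difference of the 9 was 1.34 in MDI, 1.14 in ROSI, 0.87 in TBT, 0.85 in PP, 0.71 in BP, 0.40 in BBP and 0.35 in BPA. With quantile normalization, 3 of 9 were called in BPA and 3 of 9 in BBP, and all 9 in MDI, ROSI, TBT, BP and PP, with a median of 0.82 in MDI. Within the complex, 3 genes stood above the others in MDI: Uqcrfs1 (the Rieske iron-sulfur protein) at 2.16, Cyc1 (cytochrome c1) at 2.03 and Uqcrc2 (a core protein) at 1.94. Uqcrfs1 and Cyc1 carry redox centres of the complex. The other 6 lay between 1.06 and 1.52, with Uqcr11 at 1.52, the core protein gene Uqcrc1 at 1.34, Uqcrh (the hinge protein) at 1.25, Uqcrq at 1.15, and Uqcr10 and Uqcrb at 1.06.

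The array values of the Rieske protein show how far the groups lie apart. Uqcrfs1 was at -1.20, -1.29 and -1.38 in DMSO, at 0.81, 0.89 and 0.92 in MDI and at 0.83, 0.67 and 0.81 in ROSI. The difference was 2.16 ± 0.07 (SE, limma adjusted p = 1.83e-18) in MDI and 2.06 in ROSI, whose arrays overlapped those of MDI. TBT (0.25, 0.07 and -0.00), BP (-0.07, 0.09 and 0.03) and PP (-0.04, 0.05 and -0.10) lay together near the reference. BPA (-0.60, -0.54 and -0.54) and BBP (-0.61, -0.67 and -0.53) lay between them and DMSO, and DEHP (-1.22, -1.37 and -1.24) overlapped DMSO. The Uqcrfs1 calls in BPA and BBP were lost with quantile normalization (0.19 and 0.055).

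Cyc1, like Uqcrfs1, had its highest levels in MDI and ROSI. It was at -1.02, -1.18 and -0.91 in DMSO, 0.95, 0.98 and 1.06 in MDI and 0.88, 0.82 and 0.96 in ROSI, with differences of 2.03 and 1.92. In DEHP its level was -0.86, -0.87 and -0.77, above all 3 DMSO arrays, but the difference of 0.21 was not called (limma adjusted p = 0.165). Uqcrc2 was at -1.12, -1.14 and -1.07 in DMSO and at 0.83, 0.79 and 0.87 in MDI, and in EB at -0.82, -0.89 and -0.93, a difference of 0.23 (limma adjusted p = 0.019). The EB call was lost with quantile normalization (0.067) and in the fit on only the groups compared. It was also lost without EB replicate 1 or DMSO replicate 1 or 2. At the low end of the complex, Uqcrb, a small subunit that binds ubiquinone, was at -0.33, -0.31 and -0.41 in DMSO and at 0.64, 0.76 and 0.74 in MDI. Its difference in BBP was 0.13, and its arrays there (-0.18, -0.26 and -0.22) lay above those of DMSO without a call.

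**Figure D3:**
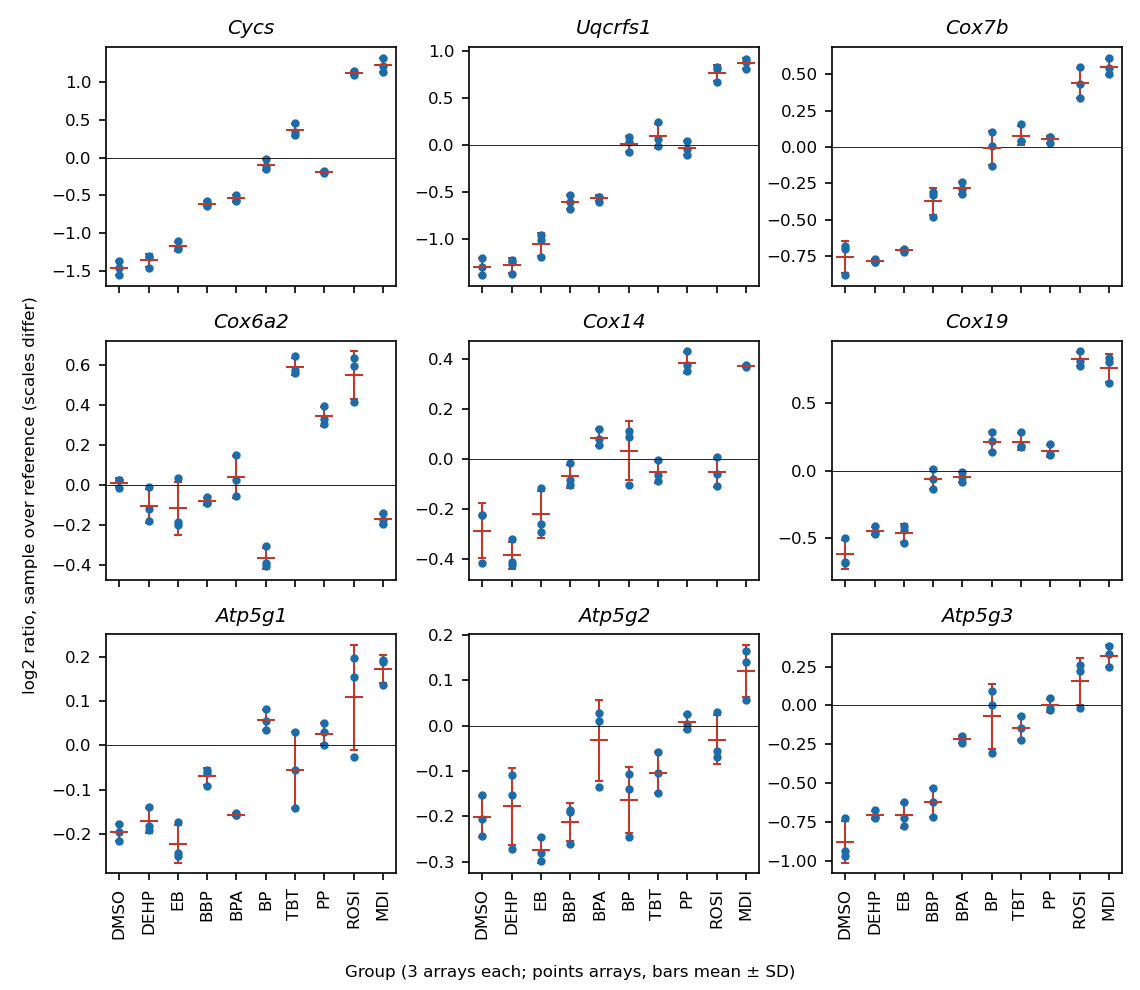
Levels (log2 ratio of sample over reference) of 9 members in the 10 groups; points are arrays and bars are the mean ± SD of 3 arrays. Cycs, Uqcrfs1, Cox7b, Cox19 and Atp5g3 rise from DMSO to MDI, Cox6a2 is high in ROSI, TBT and PP and low in MDI and BP, and Atp5g1 and Atp5g2 move little.

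The 9 common subunits of complex IV had similar differences in MDI. All 9 were called higher in MDI, ROSI, TBT, BP and PP, and 8 of 9 in BPA and in BBP. In MDI their differences ran only from 1.08 (Cox7c and Cox8a) through 1.16 (Cox4i1), 1.19 (Cox6c), 1.20 (Cox5a), 1.25 (Cox7a2), 1.26 (Cox6b1) and 1.28 (Cox5b) to 1.31 (Cox7b). The median was 1.20 in MDI, 1.09 in ROSI, 0.74 in PP, 0.65 in TBT, 0.54 in BP, 0.37 in BPA and 0.31 in BBP. With quantile normalization, 6 of 9 were called in BPA and 2 of 9 in BBP, and the median in MDI was 0.72. Cox7b, a small structural subunit, was at -0.70, -0.88 and -0.68 in DMSO, at 0.61, 0.50 and 0.54 in MDI and at 0.43, 0.34 and 0.55 in ROSI. That is a difference of 1.31 ± 0.06 (SE, limma adjusted p = 2.46e-15) or 2.47-fold in MDI, with DEHP at -0.79, -0.77 and -0.79, within the range of DMSO. Cox7c, another small subunit, was at -0.42, -0.24 and -0.23 in DMSO, at 0.77, 0.80 and 0.77 in MDI and at 0.48, 0.50 and 0.48 in ROSI.

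The isoforms and relatives of complex IV subunits did not share that rise. Of 5, MDI raised Cox7a2l and Cox6b2 (both calls lost with quantile normalization, at 0.19 and 0.12) and lowered Cox6a2, and ROSI, TBT and PP raised only Cox6a2. Cox4i2, the isoform of Cox4i1 known from lung, differed from DMSO by -0.07 to 0.04 over the 9 agents and was called in none, while Cox4i1 rose by 1.16 in MDI. Cox7b2, the isoform of Cox7b, differed by -0.01 to 0.08 and was called in none. Cox6b2, known from testis, rose by 0.16 in MDI and in BP (the latter call was lost without BP replicate 1 or DMSO replicate 1), against 1.26 in MDI for its counterpart Cox6b1. Levels of different probes cannot be compared, so whether an isoform was expressed at all was not determined.

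Cox6a2, the form of subunit 6a known from heart and skeletal muscle, went in opposite directions with different agents. It was at -0.01, 0.03 and 0.03 in DMSO and fell to -0.14, -0.19 and -0.18 in MDI, a difference of -0.18 ± 0.06 (SE, limma adjusted p = 0.0201). In BP it fell to -0.40, -0.30 and -0.39, a difference of -0.38. It rose to 0.42, 0.60 and 0.64 in ROSI (difference 0.54, limma adjusted p = 1.3e-07), to 0.65, 0.58 and 0.56 in TBT (0.58) and to 0.33, 0.31 and 0.40 in PP (0.33). None of these groups overlapped DMSO. BPA (0.03, 0.15 and -0.05), BBP (-0.06, -0.09 and -0.09), DEHP (-0.01, -0.12 and -0.18) and EB (-0.20, -0.18 and 0.04) were not called. The MDI call was lost without MDI replicate 2 or 3, or without DMSO replicate 2 or 3. The counterpart Cox6a1 is not among the measured members.

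Cox7a2l, a relative of Cox7a2 that takes part in joining complexes III and IV into supercomplexes, gave values that differed between arrays and probes. It was at -0.00, 0.02 and 0.00 in DMSO and 0.30, 0.26 and 0.35 in MDI, a difference of 0.30 with a limma adjusted p of 0.0454, and the call was lost when any 1 MDI or DMSO array was left out. In ROSI, replicate 1 was at -0.38 and replicates 2 and 3 at 0.41 and 0.40, so the difference of 0.14 was not called. Of its 3 probes, 2 gave differences of 0.34 and 0.39 in ROSI and 1 gave -0.32. In MDI the same 3 probes gave 0.27, 0.25 and 0.37.

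The tissue isoforms that the rule leaves out behaved differently from these 5. Cox7a1, the heart and muscle form of subunit 7a, rose by 4.90 in MDI, 3.80 in ROSI and 3.74 in TBT. Cox8b, known from muscle and brown fat, rose by 4.55, 4.92 and 3.81. Each of these differences is larger than that of any member with the same agent.

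The genes of complex IV assembly had smaller median differences than the subunits they serve, a gap that was not tested. Of 8, MDI and ROSI each raised 7, TBT, BP and PP raised 4 each, BPA raised 3 and BBP 2. In ROSI the call of Cox18 (arrays at -0.15, 0.15 and 0.35) was lost with quantile normalization. It was also lost without ROSI replicate 2 or 3 or DMSO replicate 3. The count in BBP was 1 without BBP replicate 3 or DMSO replicate 2, and with quantile normalization. The median difference was 0.40 in MDI, 0.28 in ROSI, 0.21 in PP, 0.18 in BP, 0.15 in TBT, 0.13 in BPA and 0.03 in BBP. In MDI, Cox10 and Cox15, which make heme A, rose by 0.40 and 0.37. Cox11, which helps insert copper, rose by 0.59, the membrane insertase Cox18 by 0.40, Cox16 by 0.24 and Cox14 by 0.66. Cox17, the copper chaperone, was called with no agent: it was at 0.02, 0.01 and -0.00 in DMSO, 0.05, -0.02 and 0.10 in MDI and -0.01, 0.07 and -0.12 in ROSI. It was measured with 1 probe, and whether it was expressed at all was not determined.

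Cox19, a small copper-related protein of the space between the membranes, was the exception among the assembly genes. It was at -0.69, -0.68 and -0.50 in DMSO, at 0.83, 0.65 and 0.81 in MDI and at 0.78, 0.82 and 0.88 in ROSI. The difference was 1.38 ± 0.06 (SE, limma adjusted p = 2.63e-16) or 2.61-fold in MDI and 1.45 in ROSI, above the range of the common subunits in both. It also rose in TBT (0.84), BP (0.84), PP (0.77), BPA (0.57) and BBP (0.56). Cox14, which acts in the early assembly of the core subunit, differed in its order of agents. It was at -0.22, -0.41 and -0.22 in DMSO, at 0.37, 0.37 and 0.38 in MDI and at 0.35, 0.38 and 0.43 in PP, but only at 0.01, -0.11 and -0.06 in ROSI. The difference was thus 0.67 in PP and 0.66 in MDI, but 0.23 in ROSI and 0.24 in TBT.

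Among 20 measured assembly factors outside the rule, MDI raised 13 and lowered 2, with a median difference of 0.19. Those of the ATP synthase stood high: Tmem70 rose by 1.50, Fmc1 by 1.39 and Atpaf2 by 1.28, while Atpaf1 differed by -0.01. Uqcc1, a complex III factor, rose by 1.07. Uqcc2 fell by 0.41, and Atpif1, which blocks ATP hydrolysis by the synthase, fell by 0.18.

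All 17 ATP synthase subunits were called higher in MDI, ROSI and PP, 16 of 17 in TBT and in BP, 15 in BPA and 10 in BBP. The median difference was 1.00 in MDI, 0.90 in ROSI, 0.58 in PP, 0.50 in TBT, 0.48 in BP, 0.25 in BPA and 0.24 in BBP. With quantile normalization, all 17 were called higher in MDI and PP, 16 in ROSI and 15 in TBT and in BP. The calls of Atp5g2 in ROSI (0.12, also lost without ROSI replicate 3) and of Atp5b in BP (0.25) were lost. Also with quantile normalization, 6 of 17 were called higher in BPA, and 5 higher and 1 lower in BBP, with a median of 0.60 in MDI. The count in BBP was 6 without DMSO replicate 2. By part of the enzyme, the median in MDI was 1.03 for the F1 head, 0.91 for the stalk and 0.98 for the membrane part. The single exception in TBT and in BP was Atp5g2, whose probes gave -0.04 and 0.23 in TBT. In TBT the call of Atp5g1 was weak, with probes at -0.18 and 0.46. It was lost with quantile normalization, and without TBT replicate 1 or 2 or DMSO replicate 1 or 2.

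In the F1 head, Atp5b, the catalytic beta subunit, rose most, by 1.54 in MDI, and Atp5a1 (alpha) and Atp5d (delta) each rose by 1.03, Atp5c1 (gamma) by 0.69 and Atp5e (epsilon) by 0.63. Atp5b was also the noisiest member. It was at -0.996, -1.41 and -1.12 in DMSO, at 0.50, 0.37 and 0.23 in MDI and at 0.32, -0.05 and 0.49 in ROSI, a difference of 1.54 ± 0.13 (SE, limma adjusted p = 1.96e-10) in MDI. Its rise of 0.37 in BPA had an adjusted p of 0.0414 by limma, and was -0.12 with quantile normalization. Atp5e was at -0.17, -0.11 and -0.15 in DMSO, at 0.49, 0.44 and 0.53 in MDI and at 0.21, 0.35 and 0.34 in ROSI. The pseudogene entry Atp5c1-ps was at -0.47, -0.41 and -0.30 in DMSO and at 0.65, 0.59 and 0.59 in MDI, a difference of 1.00. Its probe may share signal with Atp5c1, so its own level is uncertain.

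The stalk that holds the head in place rose by 1.26 (Atp5pb), 1.02 (Atp5o), 0.81 (Atp5h) and 0.65 (Atp5j) in MDI. Atp5pb was even between arrays in DMSO (-0.61, -0.59 and -0.64), MDI (0.64, 0.64 and 0.66) and ROSI (0.60, 0.61 and 0.61). Its EB arrays were less even, at -0.43, -0.54 and -0.28. Atp5pb lay at 0.27, 0.14 and 0.17 in TBT, 0.07, 0.12 and 0.13 in BP and 0.15, 0.17 and 0.15 in PP. Atp5j was at -0.29, -0.56 and -0.34 in DMSO, at 0.19, 0.24 and 0.33 in MDI and at 0.15, 0.15 and 0.18 in PP.

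In the membrane part, the 3 genes of the c subunit gave unequal differences. Atp5g1, Atp5g2 and Atp5g3 are known to encode the same mature protein, which forms the proton-carrying ring. Atp5g3 was at -0.94, -0.97 and -0.72 in DMSO and at 0.38, 0.33 and 0.24 in MDI, a difference of 1.20 with a 95% interval of 1.02 to 1.37. Atp5g1 went from -0.19, -0.22 and -0.18 to 0.19, 0.19 and 0.14, a difference of 0.37, and Atp5g2 from -0.24, -0.21 and -0.15 to 0.14, 0.17 and 0.06, a difference of 0.32 with an interval of 0.22 to 0.42. Atp5g3 also had the largest difference of the 3 in BPA, where it rose by 0.66, Atp5g2 by 0.17 (0.12 and not called with quantile normalization) and Atp5g1, at 0.04, was not called. In BP the differences were 0.81 for Atp5g3, 0.25 for Atp5g1 and 0.04 for Atp5g2. In MDI the 2 probes of Atp5g1 gave 0.21 and 0.53, and the 2 probes of Atp5g2 gave 0.19 and 0.46. Atp5g3 has 1 probe. The difference between the 3 genes was not itself tested, nor was the part that the probes have in it.

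The other membrane subunits resembled the head. Atp5mpl, a small proteolipid, was at -0.76, -0.72 and -0.63 in DMSO and at 0.61, 0.60 and 0.62 in MDI, a difference of 1.31 or 2.48-fold. On its TBT arrays it was at 0.32, 0.02 and -0.29, a wide spread. Atp5k rose by 1.13 in MDI, Atp5j2 by 1.00, Atp5md by 0.96 and Atp5l by 0.90.

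Taking the roles side by side, the median difference in MDI was 2.68 for cytochrome c (1 gene), 1.34 for complex III, 1.20 for the common complex IV subunits, 1.00 for the 17 ATP synthase subunits, 0.40 for complex IV assembly and 0.06 for the complex IV isoforms. The 36 entries other than isoforms, assembly genes and the pseudogene were all called higher in MDI, ROSI and PP, and 35 of 36 in TBT and BP. Of these calls, those of Atp5g2 in ROSI, Atp5g1 in TBT and Atp5b in BP were lost with quantile normalization. Over all agents, 27 of the 50 members were called higher with each of MDI, ROSI, TBT, BPA, BBP, BP and PP, 9 with quantile normalization and 19 in fits on only the groups compared. At the other end, 3 (Cox4i2, Cox7b2 and Cox17) were called higher with none. MDI gave the largest difference in 41 members and ROSI in 4, but with quantile normalization MDI did so in 14 and ROSI in 23. A rise of at least 2-fold was seen in 30 members in MDI, 19 in ROSI, 4 each in TBT, BP and PP, and 0 in BPA, BBP, EB and DEHP. With quantile normalization it was seen in 4 in MDI, 5 in ROSI, 3 in TBT and 0 with the other agents. The matching shares of all entries were not determined for the counts over all agents, of largest differences and of 2-fold rises. The comparisons share the DMSO arrays.

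Other energy genes from lists outside the rule moved beside the members. Of 38 complex I subunits, 36 rose in MDI (median 0.93), 37 in ROSI (0.83), 36 in TBT (0.49), 35 in PP (0.54), 31 in BP (0.42), 28 in BPA (0.25) and 21 in BBP (0.24). BPA and BP each lowered 1. All 4 complex II genes rose with the same 7 agents, by a median of 1.30 in MDI and 1.10 in ROSI. The median of the complex I genes was 0.04 in EB and -0.02 in DEHP. Glycolytic genes rose too, 13 of 14 in MDI (median 1.66) and 11 of 14 in ROSI (0.83). The proton pump of other membranes, the V-ATPase, did not move as a block: of 16 genes, MDI raised 4 and lowered 4, and ROSI raised 9 and lowered 1.

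Of 15 measured regulators of mitochondrial genes, 8 rose in MDI and 8 in ROSI. Esrra, an estrogen-related receptor, rose by 1.56 in MDI, 1.65 in ROSI and 1.07 in TBT. Ppargc1a, the coactivator PGC-1 alpha, rose by 0.43 in MDI, 1.08 in ROSI and 0.66 in TBT. In MDI, Ppargc1b rose by 0.80, Tfam (a packaging and transcription factor of mitochondrial DNA) by 0.31 and Gabpa by 0.22, while Nrf1, at -0.08, and Yy1, at 0.02, were not called.

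ROSI and MDI, the 2 agents with the largest differences, were compared directly. ROSI was lower in 11 members and higher in 1, with a median difference of -0.11 (9.47% of all entries higher, 10.8% lower), but with quantile normalization 1 member was lower, 6 were higher and the median was 0.031. The count lower was 6 without ROSI replicate 1. The largest negative differences were -0.42 for Cox14 and -0.37 for Cox5b. Cox5b, a zinc-binding subunit of complex IV, was at -0.55, -0.44 and -0.53 in DMSO, 0.74, 0.75 and 0.82 in MDI and 0.35, 0.39 and 0.46 in ROSI (limma adjusted p = 6.24e-06). With quantile normalization the Cox5b difference was -0.079 and not called (limma adjusted p = 0.387), and the single call lower was Cox14. Cox6a2 was the member higher in ROSI, by 0.72 ± 0.06 (SE, limma adjusted p = 2.09e-09), and ranked 91 of all entries. Cycs, Uqcrfs1 and Cyc1 differed by -0.10, -0.10 and -0.11 and were not called, with 95% intervals of -0.21 to 0.01, -0.25 to 0.04 and -0.23 to 0.01. With quantile normalization they were 0.26, 0.17 and 0.21, and Cycs and Cyc1 were called higher in ROSI. In the same comparison, 13 of 14 glycolytic genes were lower in ROSI, with a median of -0.72, and 10 of 16 V-ATPase genes were higher.

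TBT lay below both. Against ROSI, 33 members were lower and none higher, with none higher at an unadjusted p under 0.05 either, and the median was -0.31 (7.31% of all entries higher, 10.4% lower). The largest were -0.76 for Cycs and -0.67 for Uqcrfs1. Among those not called, Cox5b differed by -0.06, Cox14 by 0.00 and Cox6a2 by 0.04. With quantile normalization, 1 of the 5 complex IV isoforms and relatives was called higher in TBT than in ROSI. Against MDI, 44 members were lower and 1, Cox6a2 at 0.77, higher, with a median of -0.46 (12.5% higher, 15.7% lower) that became -0.19 with quantile normalization. In that setting, 14 of 17 ATP synthase subunits, 6 of 9 complex III genes and Cycs were called lower. So were 5 of 9 common complex IV subunits and 4 of 8 complex IV assembly genes. The 3 comparisons among MDI, ROSI and TBT share arrays.

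The phthalates BBP and DEHP differed. They were compared as 1 pair, at doses not given in the sources used here, so equal dosing is not known. DEHP was lower than BBP in 32 members and higher in none, with none higher at an unadjusted p under 0.05, and the median was -0.27 (0.915% of all entries higher, 4.77% lower). With quantile normalization, 13 were lower, 1 was higher and the median was -0.11. All 9 common complex IV subunits were lower in DEHP, by 0.25 to 0.43 in size, as were 8 of 9 complex III genes and 11 of 17 ATP synthase subunits. With quantile normalization these counts were 2 of 9, 4 of 9 and 5 of 17. The call of Cox7c was lost when any 1 of the 6 arrays was left out, and the ATP synthase count was 7 without DEHP replicate 2. The largest differences were -0.75 ± 0.05 (SE, limma adjusted p = 4.72e-10) for Cycs, with a 95% interval of -0.86 to -0.63, and -0.67 for Uqcrfs1. With quantile normalization they were -0.11 and -0.082, and neither was called. The isoforms were not called, and for Atp5g3 the difference was -0.08 with an interval of -0.25 to 0.09. In the same pair, all 8 adipocyte markers were lower in DEHP, with a median of -1.65, and 25 of 38 complex I genes were lower.

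**Figure D4:**
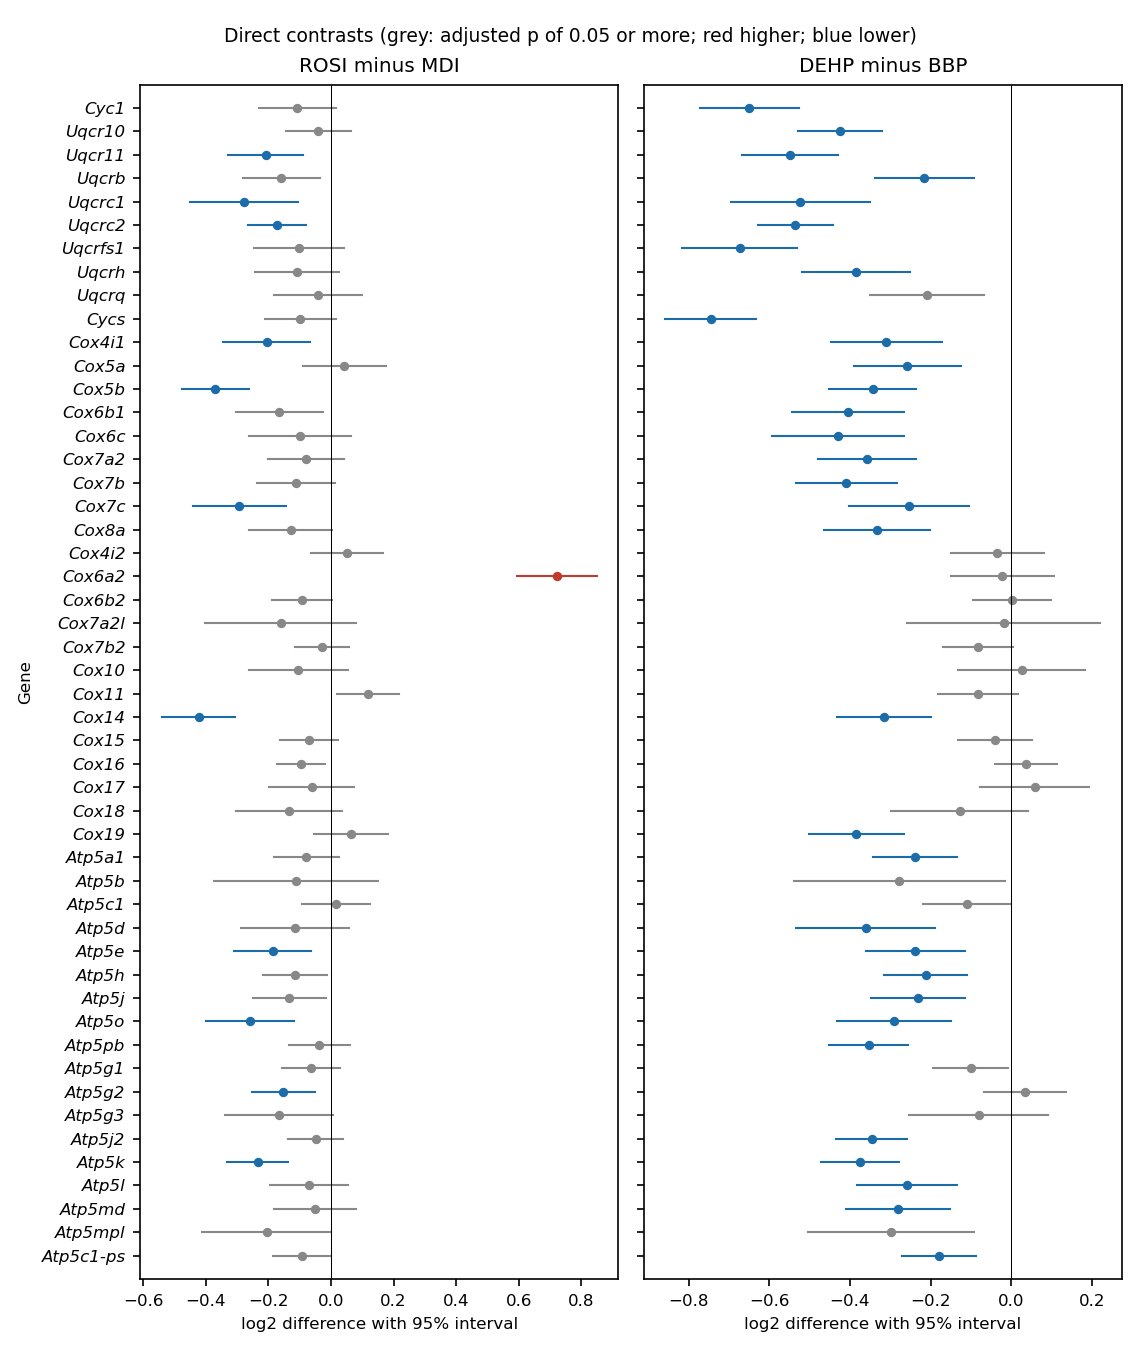
Log2 difference with its 95% interval for each member in ROSI minus MDI and in DEHP minus BBP, ordered by role; red marks called higher, blue called lower and grey not called. In ROSI minus MDI, most members lie a little below 0 (above 0 in the median with quantile normalization) and Cox6a2 lies at 0.72. In DEHP minus BBP, Cycs and Uqcrfs1 lie farthest below 0.

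Of the 50 members, 20 had more than 1 probe. The probes' differences lay within 0.5 of each other in all 20 in MDI, in 18 in ROSI and in 19 in TBT. That limit is wide for members with small differences. In MDI the spread between probes ran from 0.003 (Atp5j2) to 0.44 (Cox16, with probes at 0.02, 0.24 and 0.46). The exceptions to the limit were Cox7a2l in ROSI and Atp5g1, whose probes gave 0.02 and 0.59 in ROSI and -0.18 and 0.46 in TBT. In the authors' deposited tables, where a member counts by its best probe, 46 members were higher and 1 lower in MDI. In BP, 41 were higher and 1 lower there. The counts higher were 46 in ROSI, 42 in TBT, 43 in PP, 37 in BPA, 31 in BBP and 2 in EB.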

How the data were processed

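The authors worked with limma, per the submitters' processing notes. The version, background correction, normalization and filters are not given in the sources used here. The deposited values are log ratios per probe, read as log2 of reference over sample. Their differences between groups equal the authors' deposited log2 fold changes with the sign turned (largest absolute sum 5e-08, 8 agents), so the sign was turned. The authors' deposited tables also give adjusted p-values, whose method is not stated. The DEHP table was not used, because it is written with decimal commas.

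Of 23460 probes, 26 control probes were left out, and probes of 1 gene were averaged, which gave 14763 named genes (18966 probes have 1 symbol, none has several) and 4468 unnamed probes, 19231 entries. Symbols come from the platform annotation. All 50 members' symbols matched RefSeq. The model held a mean per group over 30 arrays (limma 3.58.1, R 4.3.3) with eBayes (20 residual and 3.56 prior degrees of freedom), two-sided, with Benjamini-Hochberg adjustment over all entries and a threshold of 0.05. The fit was tested on simulated data. Plots were made with matplotlib 3.10.9 under Python 3.11.15.

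Members, lists, comparisons and alternatives were chosen with earlier results of these data known. Array values were given for the members with the largest and smallest MDI difference in each role, Cycs and Cyc1, members called lower in MDI, ROSI or TBT, the 3 smallest p-values in each other agent, the 2 largest differences each way in direct comparisons, and the isoforms Atp5g1 and Atp5g3. Other members are given by their differences. The DMSO array with the same replicate number was the best match of every replicate only in PP and BP. The correlations of deviations were 0.13, 0.21 and 0.17 in PP and 0.04, 0.10 and 0.12 in BP, a hint from the data. The alternatives were quantile normalization, median centring, array weights, robust eBayes, a replicate block, fits on only the groups compared, single probes, a fold limit of 0.5 on the log2 scale, updated symbols and leaving out each array.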

Additional observations from a re-analysis of the deposited data

How the results depend on the processing

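Of 407 calls of members, 405 were kept with median centring and 405 with array weights, all 407 with robust eBayes, 406 with the replicate block and 377 in fits on only the groups compared. Quantile normalization kept 319, lost 81 and turned 7, and leaving out 1 array lost 125 of 2442. Calls held under every one of these alternatives in 44 of 47 for MDI, 43 of 45 for ROSI, 40 of 41 for TBT, 42 of 42 for PP, 40 of 42 for BP, 18 of 37 for BPA, 11 of 29 for BBP, 0 of 2 for EB, 26 of 33 for TBT against ROSI, 31 of 45 for TBT against MDI, 2 of 12 for ROSI against MDI and 11 of 32 for DEHP against BBP. Updated symbols changed no member. Shares of all entries called were determined for the main fit only, not under the alternatives. Quantile normalization makes the spread of values equal between arrays; the cause of its changes was not tested. Signal over background could not be judged from ratios.

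With quantile normalization the median differences were 0.65 in MDI, 0.70 in ROSI, 0.40 in TBT, 0.16 in BPA, 0.072 in BBP, 0.34 in BP, 0.53 in PP, 0.031 for ROSI against MDI (turned), -0.22 for TBT against ROSI, -0.19 for TBT against MDI and -0.11 for DEHP against BBP. The counts were 20 higher in BPA, 12 higher and 1 lower in BBP, 0 higher in EB, 6 higher and 1 lower for ROSI against MDI, 1 higher for TBT against ROSI, and 1 higher and 13 lower for DEHP against BBP. The members that turned were Atp5b in BPA (-0.12), Uqcrh in BBP (-0.088) and for DEHP against BBP (0.026), and, for ROSI against MDI, Atp5o (0.0092), Cox4i1 (0.038), Uqcr11 (0.036) and Uqcrc2 (0.092).

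With a fold limit of 0.5 on the log2 scale, the counts were 0 lower in MDI, 7 higher in BPA, 6 higher in BBP, 24 higher and 0 lower in BP, 0 higher in EB, 0 lower for ROSI against MDI, 9 lower for TBT against ROSI, 17 lower for TBT against MDI and 6 lower for DEHP against BBP. Over single probes the median was 1.00 in MDI, 0.50 in TBT and 0.26 in BPA. The replicate block gave 4 higher in EB and changed no other count of calls by over 1.5 times; it cost 1 call, in BBP. Fits on only the groups compared gave 0 higher in EB and 6 lower for ROSI against MDI, and array weights gave 2 higher for ROSI against MDI. Leaving out 1 array gave 0 to 1 lower in MDI, 0 to 5 higher in EB and 6 to 13 lower for ROSI against MDI, and medians of 0.24 to 0.30 in BPA, 0.21 to 0.27 in BBP, 0.59 to 0.62 in PP and -0.15 to -0.087 for ROSI against MDI.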
